A study of Homo sapiens with 18 samples.

Results

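The comparison set every library of 3 SMARCAL1 knockout clones of MDA-MB-436, a human triple-negative breast cancer line, against every library of 2 control groups run on the same plate assay. Its members are 10 of the 18 libraries of the series, chosen from the labels and not from any measured value: 2 libraries each of knockout clones 1, 2 and 3, 2 of the control labelled CTRL_plate, and 2 of the control labelled siRNACTRL_plate. Here a gene is said to separate the arms when its lowest library in one arm lies above its highest library in the other. The 3 clones were weighted equally, as were the 2 control groups. All 10 libraries came from PLATE-seq, a pooled, plate-based messenger RNA assay with a shallow read count per library, and were counted per gene by the authors. The labels give the knockout only as a SMARCAL1 knockout, with no site of disruption, and do not say whether the CTRL cells are a clone or a pool, nor whether the siRNA control cells carry any other change; each knockout group is 1 clone. A further 2 PLATE-seq libraries labelled siRNASMARCAL1 and 6 libraries of a TruSeq total RNA assay (3 of clone 1 and 3 of its control) are set beside the comparison where they bear on it. Nothing in the labels says that libraries of a group came from separate cultures beyond the words biological replicate. The p-values of the main fit therefore measure only the spread between libraries of the same group. Differences between clones, or between the control groups, are not counted as error there.

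SMARCAL1 is an ATP-driven annealing helicase of the SNF2 family. It is recruited by the single-strand binding protein RPA to stalled replication forks, where it rewinds DNA and remodels the fork. Loss of fork remodelling is known to change how replication stress is turned into DNA damage and cytosolic DNA, and the study's title names innate immune signalling and PD-L1 as its outcomes. PD-L1 is the product of CD274, an interferon-inducible ligand that restrains T cells.

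The libraries held 807861 to 1460313 counts in the control arm and 920828 to 3068887 in the knockout arm, with 10523 to 11855 and 11036 to 13307 genes detected. Clone 3 was the deepest group, with 2411594 and 3068887 counts. A count of 3, used here as the limit that a count of 0 allows, was worth 0.911 to 3.72 CPM (counts-per-million) by library, so genes under a few CPM could not be compared; this covers counting error only. The mitochondrial share of counts was 24.6 to 32.8% in the knockout arm and 30.2 to 34.3% in the control arm. Of the markers listed for the line, VIM (196 to 471 CPM), CD44 (119 to 217 CPM) and EGFR (142 to 324 CPM) were present in every library. SPARC, the other listed marker, had 0 counts in every library of clones 1 and 2 and is described below. The hormone receptor genes ESR1 and PGR had no count in any of the 10. ERBB2, also listed as low, had from 0 counts (CTRL replicate 1) to 17 counts (clone 3 replicate 2), and at most 9.12 CPM (siRNA control replicate 2). The 2 CTRL libraries stood apart from each other: on the third principal component, which held 13.5% of the variance, they lay at 58.8 and -33.9, while the other 8 libraries lay between -10.6 and 8.38. Results are therefore given with and without each of them below.

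SMARCAL1 itself did not check the knockout labels. In PLATE-seq it was shallow. It had 0 and 3 counts in the CTRL libraries, 7 and 8 in the siRNA control, 3 and 6 in clone 1, 8 and 3 in clone 2, and 16 and 44 in clone 3. The fitted difference between the arms was 0.69 on the log2 scale (SE 0.86, adjusted p = 0.855). For siRNA SMARCAL1 against the siRNA control it was -6.14 (SE 2.12, adjusted p = 0.573), a fall that rests on few counts and did not pass. In TruSeq, where it had 144 to 292 counts per library, SMARCAL1 averaged 14.0 ± 0.696 CPM (SD, n = 3) in clone 1 and, in its control, 14.7 ± 1.21 CPM (SD, n = 3), a log2 fold change of -0.07 (SE 0.11, adjusted p = 0.791), so the transcript of the targeted gene showed no detectable fall in the libraries labelled clone 1. The site of disruption is not given, and a disrupted gene can still be transcribed. CD274 was also shallow in PLATE-seq, with 12.2 and 2.48 CPM in CTRL, 26.3 and 23.9 CPM in the siRNA control and 7.64 to 19.1 CPM in the 6 knockout libraries. The arms overlapped and the log2 fold change was -0.39 (SE 0.48, adjusted p = 0.853); against CTRL alone it was 0.48 and against the siRNA control alone -1.25. The direction for CD274 therefore turned with the control group. In TruSeq, CD274 was -0.67 in clone 1 against its control (adjusted p = 0.261).

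Few genes set all knockout libraries apart from all controls. Of 8595 genes tested, 24 passed an adjusted p of 0.05 (0.279%; 14 higher in the knockout, 0.163%, and 10 lower, 0.116%), and 778 (9.05%) had an unadjusted p under 0.05. The arms separated for 171 genes (1.99%), 89 with the knockout higher (1.04%) and 82 with it lower (0.954%). Both criteria held for 14 genes (0.163%): TP53I11, IL7R, PCOLCE, PMEPA1, S100A4, UBE2Q1, DPYSL3, PI3, S100A10 and S100A6 higher, and TM4SF1, KRTAP2-3, CTBP2 and AP000251.3 lower. They include a cytokine receptor, 3 calcium-binding S100 proteins, a collagen-processing factor and a tetraspanin-like surface protein.

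**Figure D1:**
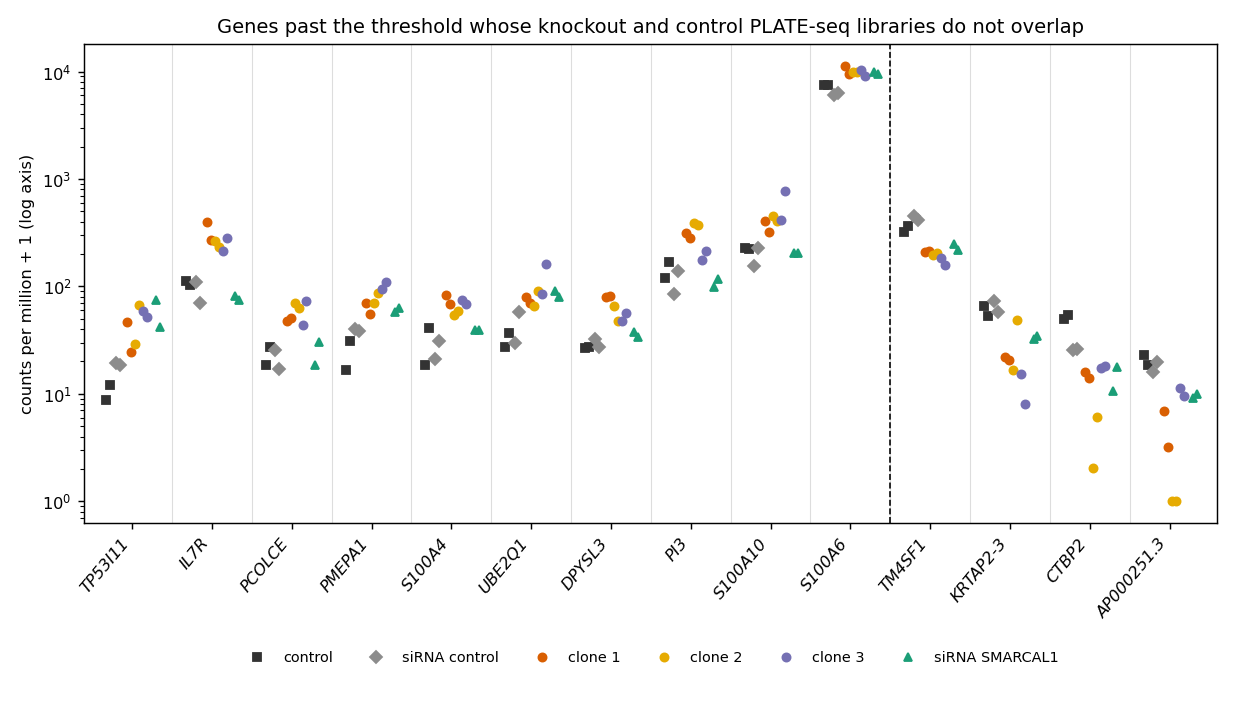
CPM plus 1 (log axis) of the 14 genes that passed the threshold and separated the arms, 1 point per PLATE-seq library; squares and diamonds are the 2 control groups, circles the 3 knockout clones and triangles the siRNA SMARCAL1 libraries. The dashed line parts the 10 genes that were higher in the knockout from the 4 that were lower. In every gene all circles lie on one side of the squares and diamonds, with IL7R at 212 to 398 CPM in the knockout against 68.8 to 111 in the controls.

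IL7R had the smallest p of the genes that separated. It encodes the alpha chain of the interleukin-7 receptor, which is best known from lymphocytes and also takes part in signalling by thymic stromal lymphopoietin; the gene lies on chromosome 5 from 35852695 to 35879603, plus strand (GRCh38). It stood at 111 and 103 CPM in CTRL and at 109.6 and 68.8 CPM in the siRNA control. In the knockout it stood at 398 and 267 CPM in clone 1, 265 and 232 CPM in clone 2, and 212 and 281 CPM in clone 3. Each knockout library was thus well above each control library, and no clone carried the difference alone. The knockout averaged 276 ± 65.1 CPM (SD, n = 6 libraries, from 3 clones) and the controls 98.0 ± 19.8 CPM (SD, n = 4 libraries, from 2 groups). Libraries of the same clone or control group are not independent repeats of its arm. The log2 fold change was 1.49 (SE 0.20, adjusted p = 0.00109). Clones 1, 2 and 3 gave 1.77, 1.35 and 1.34 against both controls, and each passed on its own (adjusted p = 0.00126, 0.0153 and 0.00717). The siRNA SMARCAL1 libraries, at 81.0 and 73.2 CPM, lay in the range of the controls. In TruSeq, clone 1 had 349 to 394 CPM against 238 to 267 CPM, a log2 fold change of 0.56 (adjusted p = 0.00433).

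TM4SF1 was the clearest fall. It encodes a small surface protein of the L6 family, abundant in many carcinomas, and lies on chromosome 3 from 149369022 to 149377865, minus strand, where its exons overlap those of the antisense gene TM4SF1-AS1; whether the counts respected strand is not given in the sources used here. It stood at 319.6 and 365 CPM in CTRL and 447 and 413 CPM in the siRNA control, against 207 and 213 CPM in clone 1, 194 and 203 CPM in clone 2, and 182 and 155 CPM in clone 3. Every knockout library was below every control library. The log2 fold change was -1.0 (SE 0.16, adjusted p = 0.00478), and each clone fell by a like amount (-0.87, -0.95 and -1.18), though of the single clones only clone 3 passed (adjusted p = 0.0103). The siRNA SMARCAL1 libraries stood at 248 and 216 CPM, both between the arms. In TruSeq, clone 1 had 44.4 to 46.4 CPM and its control 71.5 to 81.0 CPM (log2 fold change -0.74, adjusted p = 0.00132).

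S100 proteins are small calcium-binding regulators, many of them encoded in 1 cluster on chromosome 1. S100A10, the partner of annexin A2 that carries plasminogen to the cell surface, had 226 and 221 CPM in CTRL, 155 and 227 CPM in the siRNA control, 402 and 319 CPM in clone 1, 450.4 and 404 CPM in clone 2, and 415 and 771 CPM in clone 3. The second clone 3 library was far above the other knockout libraries. The log2 fold change was 1.12 (SE 0.19, adjusted p = 0.00742), and TruSeq gave 1.24 (adjusted p = 4.74e-05). S100A4, a marker of motile mesenchymal cells, had 17.7 and 39.7 CPM in CTRL and 20.2 and 30.2 CPM in the siRNA control, against 53.04 to 81.4 CPM in the knockout (log2 fold change 1.30, SE 0.27, adjusted p = 0.0257; TruSeq 0.97, adjusted p = 0.00377). S100A6, by far the most abundant of the 14, had 7433 and 7459 CPM in CTRL, 6027 and 6297 CPM in the siRNA control, and 9167 to 11328 CPM in the knockout. Its change was small, 0.56 on the log2 scale (SE 0.12, adjusted p = 0.0388), and nearly the same in each clone (0.62, 0.55 and 0.52); TruSeq gave 0.60 (adjusted p = 0.0241). Of the 9 S100A genes tested, these 3 passed and 8 had a positive difference; S100A13 (0.82, adjusted p = 0.541), S100A16 (0.42, adjusted p = 0.528) and S100A11 (0.20, adjusted p = 0.647) did not pass, and S100A14 was at -0.11. Over all genes, 0.163% passed with the knockout higher. In TruSeq, 4 of the 8 S100A genes tested were higher in clone 1 and none lower. Of the genes tested in both assays, 5.52% were called higher and 3.20% lower there. S100A10 spans 151982915 to 151994390, S100A6 153534599 to 153536244 and S100A4 153543613 to 153550136, all on the minus strand of chromosome 1. UBE2Q1, an E2 ubiquitin-conjugating enzyme at 154548577 to 154559028 of the same chromosome, also separated: 26.5 and 36.0 CPM in CTRL, 28.9 and 56.9 CPM in the siRNA control, and 64.5 to 161 CPM in the knockout (log2 fold change 1.27, SE 0.26, adjusted p = 0.0257), while TruSeq gave 0.11 (adjusted p = 0.362). From the start of S100A10 to the end of UBE2Q1, 26 genes were tested. Their median log2 fold change was 0.26 against 0.0071 for all genes. Of the 26, 5 separated upward (19.2%, beside 1.04% of all genes), the genes that set the ends of the stretch among them, and none downward. Without the S100A genes the median of the other 17 was 0.22. This stretch was chosen after its values were seen, and the part that position has in these values was not tested.

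The next 3 genes each met both criteria. PCOLCE, a secreted protein that enhances the clipping of procollagen, had 17.7 and 26.0 CPM in CTRL, 24.5 and 16.1 CPM in the siRNA control, and 43.1 to 71.7 CPM in the knockout. The log2 fold change was 1.43 (SE 0.29, adjusted p = 0.0232), with 1.20, 1.64 and 1.45 in clones 1 to 3, and TruSeq gave 1.33 (adjusted p = 0.000984). PI3, the elastase inhibitor elafin, had 118 and 169 CPM in CTRL and 84.2 and 139 CPM in the siRNA control. It stood at 316 and 283 CPM in clone 1, 385 and 374 CPM in clone 2, and 176 and 211 CPM in clone 3, so clone 3 only just cleared the controls. The log2 fold change was 1.15 (SE 0.19, adjusted p = 0.00742), and TruSeq, where PI3 was at 2.91 to 6.67 CPM, gave 0.56 (adjusted p = 0.192). PMEPA1, a TGF-beta-induced inhibitor of that pathway, had 15.5 and 29.8 CPM in CTRL, 39.4 and 37.2 CPM in the siRNA control, and 54.1 to 109.9 CPM in the knockout (log2 fold change 1.42, SE 0.25, adjusted p = 0.00742; TruSeq 1.05, adjusted p = 0.00403). PMEPA1 was lowest in clone 1 and highest in clone 3, although the clones did not differ by the test of all 3 (adjusted p = 0.572).

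Of the genes that separated without passing the threshold, 4 are described first. PLAU, the urokinase that activates plasminogen, had 63.3 to 109 CPM in the controls and 114 to 289 CPM in the knockout (1.03, SE 0.23, adjusted p = 0.0508). SERPINE2, a secreted inhibitor of plasminogen activators and thrombin, had 3.51 to 32.1 CPM and 33.1 to 62.4 CPM (1.34, adjusted p = 0.0922). KLF5, a transcription factor of epithelial cells, had 19.0 to 26.5 CPM and 29.7 to 126 CPM (1.18, adjusted p = 0.0544). All 3 passed in TruSeq in the same direction (0.35, 1.36 and 0.84). SPARC, a collagen-binding matrix protein, went the other way. It had 6 and 12 counts in CTRL and 6 and 6 in the siRNA control, but 0 in all 4 libraries of clones 1 and 2 and 1 and 8 counts in the deeper clone 3. The fitted -5.0 (SE 1.26, adjusted p = 0.112) rests on these few counts. In TruSeq, which counted far more of it, SPARC fell from 87.4 CPM in the control to 4.86 CPM in clone 1 (log2 fold change -4.16, adjusted p = 5.20e-06). PLAU, SERPINE2, KLF5 and SPARC were singled out after their values were seen.

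Of the remaining genes that met both criteria, TP53I11, a p53-inducible gene, had 7.74 and 11.2 CPM in CTRL, 18.4 and 17.5 CPM in the siRNA control, and 23.5 to 65.6 CPM in the knockout (log2 fold change 1.77, SE 0.34, adjusted p = 0.0150). DPYSL3, a cytoskeletal protein of the CRMP family, had 25.4 to 31.6 CPM in the 4 controls and 46.1 to 80.3 CPM in the knockout (1.16, SE 0.25, adjusted p = 0.0388). In TruSeq, DPYSL3 passed (0.89, adjusted p = 0.000770) and TP53I11 did not (0.25, adjusted p = 0.228). CTBP2, a transcriptional corepressor, stood at 48.7 and 53.3 CPM in CTRL but at 24.5 and 25.3 CPM in the siRNA control, and at 14.9 and 13.1 CPM in clone 1, 1.04 and 5.12 CPM in clone 2, and 16.4 and 17.0 CPM in clone 3. The fall was thus deepest in clone 2 (log2 fold change -3.49), and the mean over clones was -1.97 (SE 0.36, adjusted p = 0.0104). In TruSeq, CTBP2 did not pass in clone 1 (54.6 to 59.8 CPM against 54.7 to 62.8 CPM, -0.06, adjusted p = 0.763). KRTAP2-3, a hair keratin-associated protein gene of a family with near-identical copies, so that its reads may be split among them, had 64.1 and 52.1 CPM in CTRL and 71.9 and 56.9 CPM in the siRNA control. It had 20.8 and 19.7 CPM in clone 1, 15.6 and 47.1 CPM in clone 2, and 14.2 and 6.98 CPM in clone 3 (-1.70, SE 0.30, adjusted p = 0.00742). In TruSeq, KRTAP2-3 was at or under 0.94 CPM in all 6 libraries and did not pass (-0.95, adjusted p = 0.296). AP000251.3, a gene model for which no role is given here, had 14.9 to 22.1 CPM in the controls, 0 in both clone 2 libraries and 2.18 to 10.2 CPM in the others; its fitted -3.63 (SE 0.68, adjusted p = 0.0117) depends on how 0 is handled.

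The sequence before the RefSeq start of 1 higher and 1 lower gene of the 14 is shown, with CD274 for its place in the study's title. IL7R had the smallest p, and KRTAP2-3 is an example of the genes that fell, chosen after its values were seen. Each is the longest stretch within the 250 bases before the RefSeq start (GRCh38.p14) that lies outside every annotated exon, printed 5′ to 3′ on the gene's strand; capitals mark matches to the core of the interferon-stimulated response element, which is TTTC, then 2 bases of any kind, then TTTC. The IL7R stretch is chr5:35856688-35856848 (plus), the KRTAP2-3 stretch chr17:41060115-41060364 (minus) and the CD274 stretch chr9:5450292-5450502 (plus). The IL7R stretch lies inside the GENCODE span of the gene given above, between annotated exons, since the RefSeq start used lies farther along the gene than the GENCODE start.
IL7R: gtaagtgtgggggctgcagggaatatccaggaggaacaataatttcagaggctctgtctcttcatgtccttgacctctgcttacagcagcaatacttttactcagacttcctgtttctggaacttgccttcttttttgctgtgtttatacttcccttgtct
KRTAP2-3: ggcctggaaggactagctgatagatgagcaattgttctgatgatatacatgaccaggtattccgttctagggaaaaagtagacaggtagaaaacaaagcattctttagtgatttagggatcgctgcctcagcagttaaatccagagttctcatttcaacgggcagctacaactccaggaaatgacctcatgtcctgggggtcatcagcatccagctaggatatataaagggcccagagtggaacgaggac
CD274: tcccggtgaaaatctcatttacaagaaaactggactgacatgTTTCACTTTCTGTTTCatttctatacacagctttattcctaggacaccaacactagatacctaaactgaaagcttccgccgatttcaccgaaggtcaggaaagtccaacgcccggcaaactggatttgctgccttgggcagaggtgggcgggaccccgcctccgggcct
The CD274 stretch holds a pair of overlapping matches. Among the 12 promoters found for the genes that separated and are named by rule, none held that core and none the cyclic AMP response element TGACGTCA, and 1, MMACHC, held the AP-1 element TGANTCA; both strands of the 250 bases were searched. Of the 40 promoters found for all genes that separated upward, none held the interferon core, 2 the cyclic AMP element (5.0%) and 1 the AP-1 element (2.5%). Of the 43 found for those that separated downward, the counts were 0, 2 (4.65%) and 1 (2.33%). Over all 22114 promoters of the table, 3.21%, 1.82% and 6.86% held these motifs, in that order; with so few matches no difference is read from these shares. A match describes letters only, and the absence of a match says nothing of the factor.

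Among the 8 genes in each direction with the widest gap between arms, of the separating genes with a mean of at least 20 CPM in the higher arm, 1 of the higher and 6 of the lower did not pass the threshold. NSUN4, an RNA methyltransferase of the mitochondrial ribosome, had 64.1 and 70.7 CPM in CTRL, 47.3 and 64.6 CPM in the siRNA control and 24.6 to 34.5 CPM in the knockout (-1.06, SE 0.24, adjusted p = 0.0553), and passed in TruSeq (-0.64, adjusted p = 0.00941). ADAM19, a membrane metalloprotease, had 19.3 to 26.0 CPM in the 4 controls and 5.35 to 10.6 CPM in the knockout (-1.38, SE 0.42, adjusted p = 0.256), with -1.57 in TruSeq (adjusted p = 0.000442). MMACHC, which processes vitamin B12, UTP3, a factor of small-subunit ribosome assembly, SNRNP27, a protein of the spliceosome, and PPP4R3B, a regulatory subunit of protein phosphatase 4, had log2 fold changes of -0.87, -1.20, -0.63 and -0.85, with adjusted p of 0.119 to 0.335 and none past the threshold in TruSeq. ABCC3, an efflux transporter of organic anions, was on the higher side: 3.32 to 8.77 CPM in the controls, and 23.2 to 28.4 CPM in clones 1 and 2 against 12.9 and 12.8 CPM in clone 3 (1.73, SE 0.43, adjusted p = 0.0964; TruSeq 0.77, adjusted p = 0.00907). Exons of SNRNP27 overlap those of MXD1 on the same strand, and exons of ADAM19, MMACHC and PPP4R3B overlap a gene of the other strand. The same holds, on the other strand, for TP53I11, PCOLCE, PMEPA1, UBE2Q1, S100A6, CTBP2, PLAU, SPARC and SMARCAL1 above and for DKK1, HDLBP and EPHA4 below, on the same strand for SAA1, BDKRB2 and LRRC8C, and on both strands for NSA2. Since the strand setting is not given, the counts of these genes are uncertain to that extent.

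A further 10 genes passed the threshold without separating the arms, and for 5 of them the clones themselves differed; IL24, CSF3 and DKK1 belong to the gene lists, and the other 7 were named after their values were seen. SAA1, an acute-phase protein with near-identical paralogs, had 320.0 to 524 CPM in the 4 controls and 343 to 532 CPM in clones 1 and 2, but 60.0 and 40.4 CPM in clone 3 (test of the 3 clones, adjusted p = 2.52e-06); leaving out clone 3 turned the mean difference from -0.99 to 0.04. IL24, an interleukin-10 family cytokine, was lowest in clone 1 (2.97 and 3.28 CPM) and in the control range in clone 3 (49.3 and 41.0 CPM; clone test, adjusted p = 0.000536). The log2 fold changes of IL24 were -3.41, -1.46 and 0.40 in clones 1, 2 and 3, and its call was lost without clone 1 (adjusted p = 0.676) and without clone 2 (adjusted p = 0.0873). TENM2, an adhesion protein of neurons, had 0 and 0.607 CPM in clone 3 and 11.3 to 29.5 CPM in the other clones (adjusted p = 0.00355). BEX1, a small adaptor protein of neural cells, was at 25.6 to 63.0 CPM in clones 1 and 2 and at 144 and 127 CPM in clone 3, which overlapped the controls (adjusted p = 0.0113). CSF3, the granulocyte growth factor G-CSF, had the smallest p after IL7R (log2 fold change -1.20, adjusted p = 0.00142) but depended on which control it was set against. It stood at 616 and 537 CPM in CTRL and 1379.8 and 1504 CPM in the siRNA control, against 197 to 796 CPM in the knockout, so clone 1 overlapped the CTRL libraries. Against CTRL alone the difference of CSF3 was -0.54 (adjusted p = 0.394) and against the siRNA control -1.86. For the others, the clones did not differ by the test. DKK1, a secreted WNT inhibitor, had 11.1 and 8.68 CPM in CTRL, 72.8 and 19.7 CPM in the siRNA control and 35.5 to 216 CPM in the knockout (2.15, adjusted p = 0.0136). FST, the activin-binding protein follistatin (2.11), IGFBP4, a binding protein of insulin-like growth factors (1.84), HDLBP, an RNA-binding protein (0.90), and NSA2, a ribosome assembly factor (-1.20), overlapped in the same way. IGFBP4 was 0.36 against CTRL alone and 3.31 against the siRNA control.

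**Figure D2:**
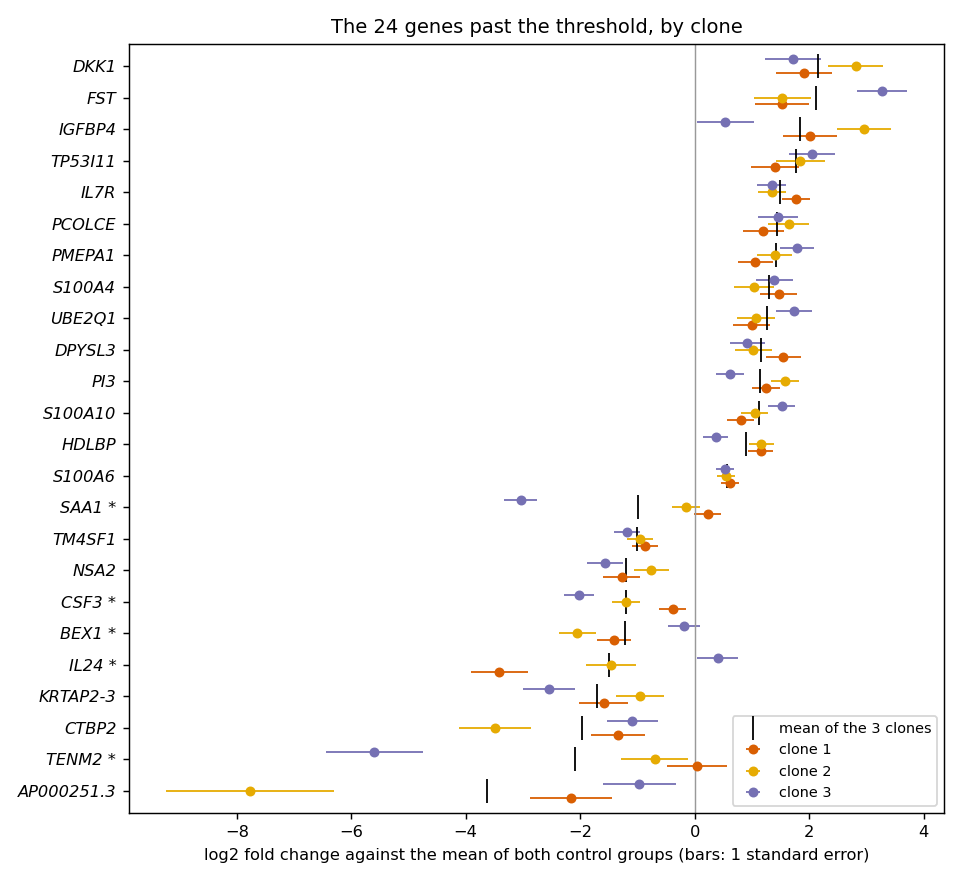
Log2 fold change of each knockout clone against the mean of both control groups (horizontal axis; bars are 1 standard error) for the 24 genes past the threshold; black bars give the mean of the 3 clones and asterisks mark the 5 genes whose clones differed. IL7R, TM4SF1 and S100A6 hold nearly the same value in each clone, while SAA1 and TENM2 are far lower in clone 3 than in the others and IL24 is lower in clones 1 and 2 but not in clone 3. Values of AP000251.3 in clone 2 and TENM2 in clone 3 rest on libraries with 0 or few counts.

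Counted by clone, 10 genes passed for clone 1 against both controls (0.116%), 17 for clone 2 (0.198%) and 56 for clone 3 (0.652%), the deepest group; 61 genes differed among the clones (0.710%). Of the 89 genes that separated upward 1 differed among the clones, and of the 82 downward none did. Against CTRL alone 17 genes passed (0.198%), of which 7 were among the 24, and against the siRNA control alone 20 passed (0.233%), of which 11 were. These comparisons share libraries. The 2 control groups differed from each other in 1 gene (0.0116%).

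The siRNA SMARCAL1 libraries share the siRNA control with this comparison, so their values are set beside it only. S100A6 stood at 9949 and 9543 CPM there, within the knockout range of 9167 to 11328 CPM. UBE2Q1, at 89.1 and 79.1 CPM, also lay within the knockout range. TP53I11 had 73.5 and 40.5 CPM, the first above the highest knockout library (65.6 CPM) and the second within the knockout range. TM4SF1 (248 and 216 CPM) lay below all 4 controls, and so did KRTAP2-3 (31.3 and 33.6 CPM), CTBP2 (9.53 and 16.8 CPM) and AP000251.3. PMEPA1 (57.2 and 61.3 CPM) lay above all 4 controls. IL7R, S100A10 (201 and 204 CPM), PI3 (97.3 and 116 CPM) and PCOLCE (17.7 and 29.7 CPM) lay in or near the control range. None of these genes passed for siRNA SMARCAL1 against its own control (adjusted p = 0.378 for S100A6, the smallest of them, with a log2 fold change of 0.66, SE 0.19).

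The TruSeq libraries gave a reading of the separating genes that the PLATE-seq arms did not enter, although clone 1 is 1 of the 3 clones and so not another line. Of the 89 genes higher in the knockout, 86 were tested in TruSeq: 19 were higher in clone 1 and 1, RLF, was lower, where 5.52% and 3.20% of the genes tested in both assays were called (8.72% in all; over all 17371 genes of the TruSeq fit it was 6.27%). Their median TruSeq log2 fold change was 0.14, with 62 positive and 24 negative. Of the 82 genes lower in the knockout, 78 were tested: 14 were lower in clone 1 and none higher, with a median of -0.11, 17 positive and 61 negative. All genes tested had a median of 0.0048. The TruSeq arms themselves did not overlap, in the same direction, for 34 of the 86 (16.7% of all genes) and 31 of the 78 (15.7%). Median PLATE-seq differences of the 2 sets were 1.11 and -0.86, far from the TruSeq medians. In the higher arm the median level was 28.6 CPM for the 89 and 33.9 CPM for the 82, beside 22.4 CPM for all genes. RLF, a zinc finger protein gene singled out for that reversal, had 3.57 to 61.4 CPM in the knockout and 0 to 3.51 CPM in the controls, and -0.29 in TruSeq (adjusted p = 0.0326).

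Further separating genes that passed in TruSeq in the same direction, though not in PLATE-seq, were named after their values were seen. On the higher side, BDKRB2, the bradykinin B2 receptor, had 0 to 17.5 CPM in the controls and 18.7 to 42.0 CPM in the knockout (1.63 in PLATE-seq, adjusted p = 0.145; 0.61 in TruSeq). TCF12, a helix-loop-helix transcription factor, had 3.72 to 17.5 CPM and 20.2 to 46.5 CPM (1.64, adjusted p = 0.0991; 0.60 in TruSeq). EPHA4, an ephrin receptor, had 0.877 to 3.51 CPM and 5.20 to 21.5 CPM (2.06, adjusted p = 0.361; 0.42 in TruSeq). The gap for BDKRB2 between the nearest libraries of the arms was narrow. On the lower side, LIMA1, an actin-bundling protein of epithelial junctions, had 44.7 to 75.2 CPM in the controls and 26.7 to 44.1 CPM in the knockout (-0.85, adjusted p = 0.280; -0.82 in TruSeq). SERBP1, an mRNA-binding protein, had 701 to 933 CPM and 435 to 660.4 CPM (-0.60, adjusted p = 0.173; -0.34 in TruSeq). RPL22L1, a paralog of a ribosomal protein, had 164 to 221 CPM and 111 to 149 CPM (-0.49, adjusted p = 0.361; -0.58 in TruSeq). LRRC8C, a subunit of the volume-regulated anion channel, had 14.9 to 23.2 CPM and 1.09 to 8.50 CPM (-1.58, adjusted p = 0.267; -0.45 in TruSeq). In each of these 7 genes the TruSeq libraries of clone 1 and its control did not overlap. The genes were picked for passing in those same libraries, so this adds no further support.

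**Figure D3:**
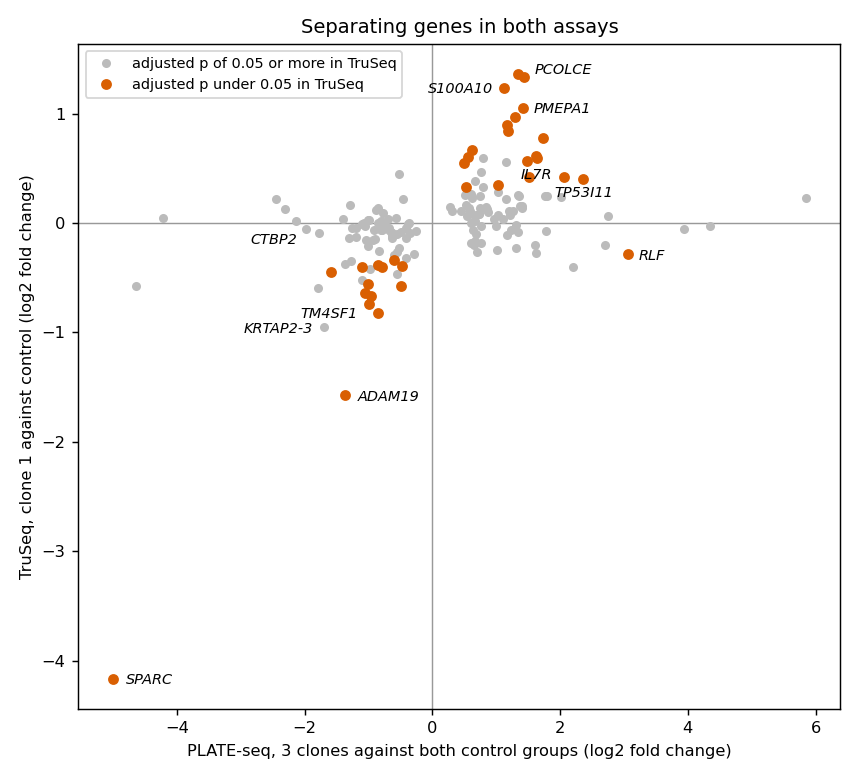
Log2 fold change in PLATE-seq (3 clones against both control groups, horizontal) and TruSeq (clone 1 against its control, vertical) for the genes that separated the PLATE-seq arms and were tested in both; orange points passed an adjusted p of 0.05 in TruSeq. The horizontal axis chose the genes, so the empty band around 0 on it is a result of the choice. Of the orange points, 19 lie at the upper right and 14 at the lower left, SPARC the farthest, and RLF alone lies at the lower right.

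Gene groups tied to the study's question held few or none of the 24. At the share called over all genes, lists of this size would mostly hold none, so nothing is read from a list without a call. No member passed among 32 interferon-stimulated genes (median log2 fold change 0.07), 22 genes of cytosolic DNA and RNA sensing (0.04), 16 of MHC class I presentation (0.04), 12 checkpoint ligands and regulators (0.03), 39 of fork remodelling and protection (-0.01) and 16 of the AP-1 family (-0.16), beside a median of 0.0071 and 0.279% called for all genes. The medians of 3 of these lists had opposite signs against CTRL alone and against the siRNA control alone: 0.22 and -0.080 for MHC class I presentation, 0.11 and -0.0049 for fork remodelling, and 0.11 and -0.15 for the AP-1 family. Single members show the spread: OAS3 was at 0.45 (193 CPM on average in the knockout and 140 CPM in the controls), ISG15 at 0.07, IFIT1 at -0.95, the sensor gene MB21D1 (cGAS) at 0.50 and TMEM173 (STING) at 0.14, all with adjusted p above the threshold. None of the interferon-stimulated or sensing genes separated the arms, beside 1.99% of all genes, a share at which lists of this size may hold none. Of 17 cytokines and chemokines, CSF3 and IL24 passed, both lower; the median was -0.22, but 0.27 against CTRL alone and -0.59 against the siRNA control alone, so the direction of this list turned with the control. IL11 (-1.58) and IL1A (-0.65) did not pass. Among 25 NF-kappa-B targets and 21 p53 targets none passed (medians -0.15 and -0.20); PLAU separated upward, and IER3 and PLK3, a stress-induced survival gene and a stress-response kinase, separated downward.

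Mesenchymal and matrix genes had the highest median of the lists with 10 or more members tested: 0.32 over 29 genes, 22 positive and 7 negative. Against CTRL alone it was 0.39 and against the siRNA control alone 0.37. Between libraries of the same group, the median log2 level of this list varied with an SD of 0.34. Of these 29 only S100A4 passed; S100A4 separated upward and SPARC downward. Collagen and laminin genes of the list were COL5A1 at 1.02, COL6A2 at 0.62, LAMB1 at 0.58, COL6A1 at 0.53 and LAMC1 at 0.48, none past the threshold here, and each higher in clone 1 in TruSeq (0.73, 0.76, 0.52, 0.72 and 0.49). TAGLN, an actin-binding protein of smooth muscle, was at -0.29 and did not pass. Among 22 WNT and TGF-beta pathway targets and inhibitors DKK1 and PMEPA1 passed, and the median was 0.07. Luminal markers, 7 of 7 positive with a median of 0.27, held no gene past the threshold; CDH1, the epithelial cadherin, was at 0.92 and KRT18 at 0.17. Markers of other cells stayed low: leukocyte markers summed to 24.6 to 76.2 CPM in the knockout and 15.4 to 44.7 CPM in the controls, and endothelial markers to 13.7 to 33.3 and 9.83 to 18.4 CPM. PTPRC, CD3E, CDH5 and VWF were at 0 throughout. PECAM1 had 7 and 2 counts in clone 1, 0 and 2 in clone 2 and 0 and 1 in clone 3, and CD14 had 1 and 0 in clone 1, 0 in both libraries of clone 2 and 3 and 16 in clone 3; both were at 0 in all 4 controls. The part of other cells in the differences was not tested.

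**Figure D4:**
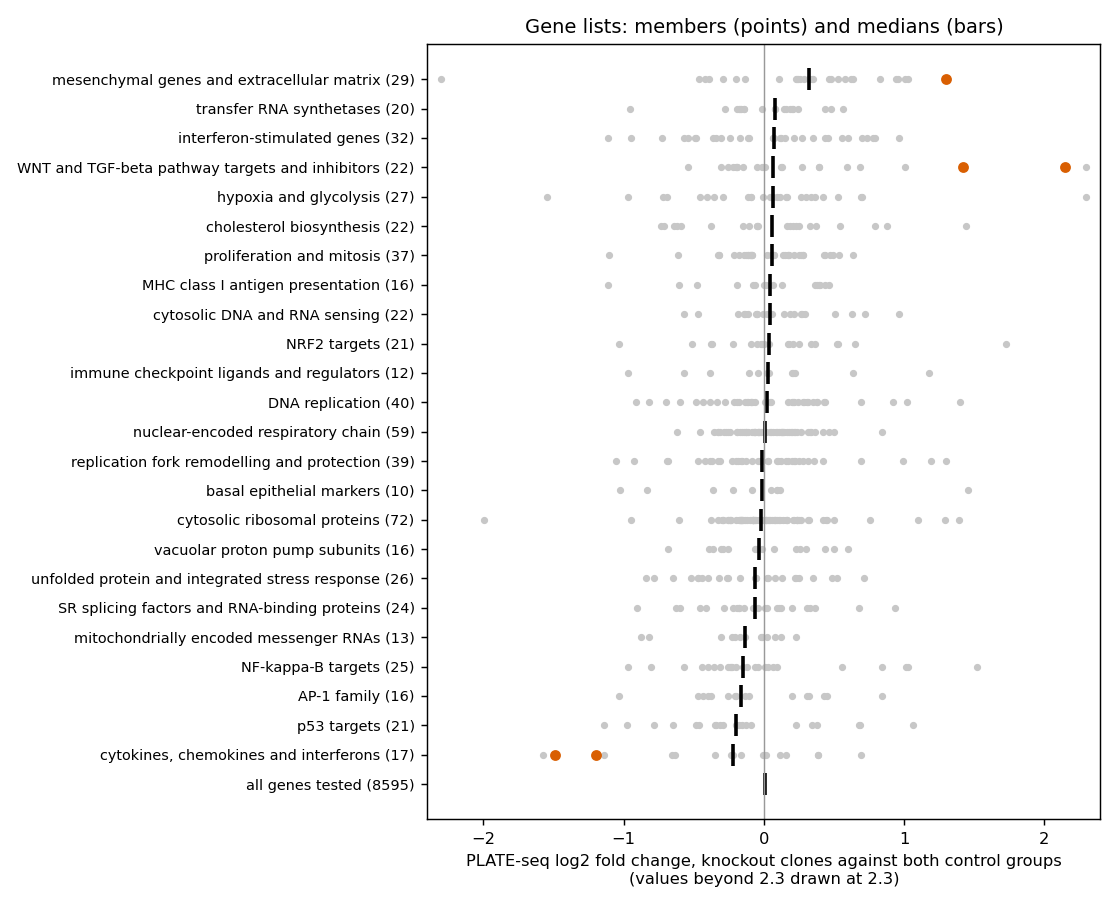
PLATE-seq log2 fold change (3 clones against both control groups) of the members of each gene list with 10 or more genes tested (grey points; orange, past the threshold) and the list's median (black bar), with the number tested in parentheses. The medians lie between -0.22 for cytokines and 0.32 for mesenchymal and matrix genes, beside 0.0071 for all genes; S100A4, DKK1, PMEPA1, CSF3 and IL24 are the orange points.

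How far the calls rested on single libraries differed by gene. IL7R, TM4SF1 and CSF3 kept their calls whichever of the 12 PLATE-seq libraries was left out (largest adjusted p 0.0228, 0.0370 and 0.0213). PI3 and KRTAP2-3 lost theirs without control replicate 1 or siRNA control replicate 1 (adjusted p up to 0.0902 and 0.0768), and S100A10 without either CTRL library or siRNA control replicate 1 (up to 0.0849). PMEPA1 and CTBP2 kept theirs in 9 of the 12 omissions, AP000251.3 in 8, and TP53I11, UBE2Q1 and S100A4 in 6. PCOLCE, DPYSL3 and S100A6 kept theirs in 3, 3 and 2 (adjusted p up to 0.184, 0.202 and 0.196); in TruSeq the first 2 passed in 6 of 6 omissions and S100A6 in 2. Of the 24 genes, 8 remained without control replicate 1, 8 without control replicate 2, 5 without siRNA control replicate 1 and 9 without siRNA control replicate 2; 12 and 18 remained without clone 1 replicate 1 and 2, 18 and 11 without clone 2 replicate 1 and 2, and 23 and 16 without clone 3 replicate 1 and 2. The count of separating genes was 302 without control replicate 1 and 305 without control replicate 2. With the 6 knockout and 4 control libraries as 2 plain groups, IL7R and TM4SF1 were the 2 genes that passed. That design counts the spread between clones as error, but still takes the 2 libraries of a clone or control group as independent. With libraries summed per group, so that each clone and control group counted once, 0 genes passed, and IL7R and TM4SF1 lost their calls.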

How the data were processed

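The PLATE-seq and TruSeq tables were deposited as counts per gene, made by the authors; per the submitters' processing notes the tools were STAR and HTSeq with the build hg38, and their versions, the annotation release and the strand setting are not given in the sources used here. Libraries were mapped to groups by their titles. Titles name MDA-MB-436 for every library, whereas the line numbers tagged on the PLATE-seq libraries climb from 437 to 448; the titles were followed. Spike-ins (92 entries) were left out of the PLATE-seq fit. In PLATE-seq, 28 symbols turned into dates and 4 entries sharing a symbol were not removed before the fit, but were not named. The 14 date symbols of TruSeq were not removed before its fit either. Spike-ins held at most 0.0534% of counts; they were present at 351 to 632 counts in the replicate 1 libraries and at 3 to 17 counts in the replicate 2 libraries of each group, so the replicate numbers mark a technical difference that is balanced over groups.

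Genes passed edgeR 4.0.16's filterByExpr by group (8595 in PLATE-seq, 17371 in TruSeq), were scaled by TMM and tested with the quasi-likelihood F test (R 4.3.3, limma 3.58.1), two-sided, with Benjamini-Hochberg adjustment over all genes and a threshold of 0.05. A single fit held all 12 PLATE-seq libraries in 6 groups (6 residual degrees of freedom, biological coefficient of variation 0.330); TruSeq was fitted apart (4 degrees of freedom, 0.123). Every adjusted p comes from these fits, SE is the log2 fold change over the root of F, and CPM use TMM library sizes. The scripts were tested on simulated data. Replicates of a group differed by more than sampling noise (chi-square per degree of freedom 5.66 to 19.1), so none was counted as a repeat of another.

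The rule named the genes past the threshold that separated the arms with a mean of at least 10 CPM in the higher arm, the separating genes of at least 20 CPM with the widest gap in log2 CPM plus 1, and list members past the threshold. Genes named outside the rule are marked in the text, with some exceptions. Other single members of the gene lists, the S100A family and the chromosome windows are examples chosen by no rule and are not marked. The comparison and the 29 gene lists were chosen with earlier results of these data known. Positions come from GENCODE release 29 (32 of 33 named genes located once) and promoters from RefSeq (GRCh38.p14). Alternatives were another design, DESeq2 1.42.0 as test or scaling, other filters, a replicate block, single control groups, and leaving out each library or clone. Same-numbered PLATE-seq libraries did not deviate together (10 correlations of -0.0175 to 0.0556). In TruSeq the 3 correlations were mixed (-0.273 to 0.575). The mitochondrial share in TruSeq control and clone 1 was 0.891 and 0.837% in replicate 1, 0.637 and 0.37% in replicate 2, and 0.302 and 0.316% in replicate 3. Neither main fit took the numbers as pairs. With a replicate block TruSeq called 2387 genes rather than 1089, so its adjusted p depend on that choice.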

Additional observations from a re-analysis of the deposited data

Results flagged for a closer look

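Each of the 33 genes named by rule or past the threshold was checked for a library far from the others of its arm, in 66 sets of 4 or 6 values, of which 7 held one; chance gives about 1 in 20. In the knockout arm, clone 3 replicate 2 was the far library for 3 genes: S100A10 at 771 CPM (next 450.4), UBE2Q1 at 161 CPM (next 89.1) and, on the low side, SNRNP27 at 158 CPM (next 211). IL7R was highest in clone 1 replicate 1 at 398 CPM (next 281), and KRTAP2-3 in clone 2 replicate 2 at 47.1 CPM (next 20.8), which is the knockout library nearest to the controls for that gene. In the control arm, siRNA control replicate 1 was the far library for DPYSL3, at 31.6 CPM (next 26.0), and for S100A10, at 155 CPM (next 221). All of these genes were named because their arms separate, so separation in the 7 cases says nothing further about the far libraries.

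Clones of the same knockout differed from each other, by the F test of the 3 clones, for 5 of the genes past the threshold. The adjusted p was 2.52e-06 for SAA1 and 0.00355 for TENM2, both lowest in clone 3. It was 0.000536 for IL24, lowest in clone 1, and 0.0113 for BEX1, lowest in clone 2. For CSF3 it was 0.0076, with clone 1 at 796 and 602 CPM and clone 3 at 197 and 254 CPM. For these genes a mean over the clones does not describe each clone.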

How the results depend on the processing

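The 24 genes past the threshold were 24 under DESeq2 size factors or a 20-CPM filter and 23 with the 10 compared libraries alone, but 2 under a plain 2-group design, 0 with libraries summed per group (393 at an unadjusted p under 0.05), 53 by the DESeq2 test (all 24 among them), 76 without a filter, 14 without clone 2 and 43 without clone 3, and 5 to 36 when 1 library was left out. The 171 separating genes became 348, 347 and 489 without clone 1, 2 or 3, 98 at 20 CPM or more, and 212 to 358 without 1 library. Between the 2 controls the count of 1 became 5 by DESeq2, 35 without a filter and 0 to 1 without 1 library. The 61 genes that differed among clones became 163, 230 and 11 to 121 under the same 3 changes. In TruSeq the count of 1089 was 245 to 1157 without 1 library. With the replicate block, PLATE-seq gave 23, 1 and 64 genes and TruSeq 2387, so the TruSeq count depended on whether same-numbered libraries were paired. Of 819 values of the 33 named genes under 25 alternatives, 592 kept their side of the threshold, 217 lost a call, 6 gained one and 4 changed sign. The 592 include values of named genes outside the 24, which had no call to lose, so they overstate how steady the calls were. The sign changed for CD274 (0.48 against CTRL alone, and -0.74 to 0.39 without 1 library), SAA1 (0.035 without clone 3) and SMARCAL1 (-0.14 against the siRNA control alone). In TruSeq it changed for SMARCAL1 (-0.11 to 0.0075 without 1 library), CSF3 (-0.037 to 0.091) and PPP4R3B (-0.040 to 0.051, 0.020 without a filter and 0.00071 with the block), all at values near 0. With 2 libraries per group, a group left with 1 is assumed to vary like the others. Depth limits the comparison to genes above a few CPM.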

Other observations

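Median differences were also taken by position along the chromosomes. The genes were placed in windows of 10 Mb (GRCh38, by gene start), and 163 windows held at least 20 genes tested in PLATE-seq; the windows below were chosen on their own medians, after these were seen, and no test of position was made. In 7 windows the median log2 fold change was past 0.2 in PLATE-seq and in TruSeq with the same sign, 4 higher and 3 lower, and no window was past 0.2 in both with opposite signs. In 3 of the 7, clone 3 was near 0 or of the other sign. In the 7 windows, 39.7% of the genes tested in TruSeq were called there, beside 8.72% of all genes tested in both assays. The TruSeq medians helped choose these windows, so this share adds no further support.

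On chromosome 20 from 60 to 70 Mb, 25 of 28 genes were lower in the knockout, with medians of -0.51, -0.63 and -0.21 in clones 1, 2 and 3 and -0.36 in TruSeq; CABLES2, RGS19 and TPD52L2, which separated downward, lie there. On chromosome 1 from 80 to 90 Mb the medians were -0.34, -0.29 and -0.28 in the 3 clones and -0.37 in TruSeq, and from 50 to 60 Mb they were -0.33 and -0.31 in clones 1 and 2 but 0.18 in clone 3. The window next to it, from 40 to 50 Mb, is not one of the 7; it holds NSUN4, MMACHC, PLK3 and MAST2, which separated downward, and RLF, which separated upward. Its medians were -0.28, -0.32 and 0.05 in clones 1, 2 and 3 and -0.30 in TruSeq. In TruSeq, 21 of 65 genes were lower and none higher, beside 3.20% and 5.52% of all genes tested in both assays. On chromosome 2 from 230 to 240 Mb, 26 of 34 genes were higher, with medians of 0.45, 0.70 and 0.03 in clones 1, 2 and 3. In TruSeq, 18 of 34 were called higher, beside 5.52% of all genes tested in both assays. On chromosome 6 from 10 to 20 Mb the medians were 0.26, 0.75 and 0.06, with 15 of 23 called higher in TruSeq. On chromosome 7 from 100 to 110 Mb, where PCOLCE and COPS6 lie, they were 0.33, 0.31 and 0.39, with 40 of 49 genes higher. The remaining window, on chromosome 10 from 20 to 30 Mb, had medians of -0.15, 0.11 and 0.44 in clones 1, 2 and 3 and 0.51 between the 2 control groups. It is 1 of the 4 higher windows, so its TruSeq median was above 0.2, whereas clone 1 was negative in PLATE-seq. Between the 2 control groups the medians of the other 6 windows were -0.23 to 0.18. The part that position has in the values of NSUN4, MMACHC, PCOLCE and the S100A genes was not tested.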
